A study of Mus musculus with 9 samples.

Results

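A group of 9 genes of the retinoic acid pathway was followed through the reprogramming of spermatogonial stem cells (SSC). They encode enzymes that make retinoic acid (Rdh10, Aldh1a1, Aldh1a2), a protein that binds it in the cytoplasm (Crabp1), its nuclear receptors (Rara, Rarb, Rarg) and enzymes that break it down (Cyp26a1, Cyp26b1). The members were found by position, from the chromosome, start and end of each assembled locus against GRCm38 gene coordinates, because the gene names printed in the table did not match the positions. Of the 9 members, 8 had a locus, out of 54913 loci and 11176 genes that could be named in this way. Cyp26a1 had no locus of its own.

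The data comprise 9 RNA-seq libraries, 3 each of SSC, of iPSC derived from SSC (SSCiPSC) and of iPSC derived from fetal fibroblasts (fiPSC). All mice carried the alleles Gt(ROSA)26Sortm1(rtTA*M2)Jae and Col1a1tm3(tetO-Pou5f1,-Sox2,-Klf4,-Myc)Jae/J, a ubiquitously expressed doxycycline-dependent activator together with the 4 reprogramming factors under its control, so the SSC carried them too. SSC (passage 0) were cells of pup testes, from the first postnatal week, selected on magnetic beads for Gfra1, the receptor for the niche factor GDNF. SSCiPSC and fiPSC were clonal lines grown in embryonic stem cell medium with LIF and doxycycline per the labels (passages 10 to 11), and selected for SSEA1 to reduce feeder cells. The study's methods give a later passage and a gradual withdrawal of doxycycline. No fibroblast library was among the samples, so fiPSC could not be set against their own cell of origin. The study calls the libraries biological samples, but the labels do not say whether replicates came from separate animals or lines. The p-values measure the spread between these libraries, and how much of it is technical is not known.

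Retinoic acid is made from vitamin A in 2 steps. Retinol dehydrogenases such as Rdh10 make retinaldehyde, and the Aldh1a enzymes oxidize it to retinoic acid. Retinoic acid then binds RAR proteins, which pair with RXR on direct repeats in DNA and exchange corepressors for coactivators, while Cyp26 enzymes degrade it. In the testis retinoic acid moves spermatogonia out of the stem cell state toward differentiation and meiosis, with Stra8 and Kit as its best known targets, and Sertoli cells as well as germ cells carry Aldh1a enzymes. In pluripotent cells it is a strong signal for differentiation.

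RefSeq promoter sequences (GRCm38.p6, from 250 bases before to 50 bases after each start) were available for 8 of the 9 members, all but Rdh10. They were searched on both strands for direct repeats of the receptor half-site, which was AGGTCA, its variant AGTTCA, its variant GGGTCA or its variant GGTTCA, with a spacer of 5 bases, the DR5 arrangement to which RAR and RXR bind. Among the members, Rarb and Cyp26a1 held a match, and 32 of 32851 promoters (0.0974%) did so. Each is shown as the 150 bases before the start, 5′ to 3′, with the DR5 match in capitals. They are shown because these receptor and breakdown genes carry the arrangement that retinoic acid itself acts on.
Rarb, chr14:16575477-16575626, minus strand: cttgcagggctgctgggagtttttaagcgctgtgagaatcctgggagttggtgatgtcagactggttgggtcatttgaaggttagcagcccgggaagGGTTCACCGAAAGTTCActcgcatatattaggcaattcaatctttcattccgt
Cyp26a1, chr19:37697658-37697807, plus strand: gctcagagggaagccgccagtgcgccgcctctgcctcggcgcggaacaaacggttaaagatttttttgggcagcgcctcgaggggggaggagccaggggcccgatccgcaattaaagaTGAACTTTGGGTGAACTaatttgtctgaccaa
In Rarb the match lay on the strand of the gene, and in Cyp26a1 on the opposite strand, nearer to the start. The same window before Aldh1a1 and Rarg, the members that changed most in each direction, held no match to these letters in this arrangement.
Aldh1a1, chr19:20601818-20601967, plus strand: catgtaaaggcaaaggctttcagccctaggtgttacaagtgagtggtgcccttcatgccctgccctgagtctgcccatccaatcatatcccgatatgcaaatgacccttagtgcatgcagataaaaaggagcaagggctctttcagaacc
Rarg, chr15:102257523-102257672, minus strand: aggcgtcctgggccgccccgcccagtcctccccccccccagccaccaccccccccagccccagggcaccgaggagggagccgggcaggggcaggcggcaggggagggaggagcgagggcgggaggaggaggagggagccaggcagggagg
With a spacer of 1 base (DR1, in 0.222% of promoters) or 2 bases (DR2, in 0.268%) no member window held a match, and of the 26 of 40 other pathway genes listed below that had a promoter sequence only Bco1 held a match, a DR1. A match describes the sequence and does not show that a receptor was bound.

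The libraries differed in depth. Totals estimated from the steps between low FPKM values were 1770000, 4630000 and 1390000 fragments in SSC replicates 1, 2 and 3, against 13400000 to 17500000 in the 6 iPSC libraries, and 30.0%, 18.9% and 35.4% of loci were at 0 in SSC against 9.64% to 13.9% in iPSC. The libraries labelled SSC held germ line RNA. All 12 genes of a germ line list were at 1 FPKM or more in every SSC library, with a summed level of 726, 857 and 599 FPKM and Dazl, a germ cell RNA-binding protein, as the most abundant gene. In iPSC the sum was 267 to 443 FPKM and 9 of the 12 genes were at 1 FPKM or more in every library, with Lin28a and Etv5, which pluripotent cells also express, higher in every iPSC library than in any SSC library. Gfra1 was at 23.9 to 37.7 FPKM in SSC and at no more than 0.171 FPKM in iPSC, and Nanog, a core pluripotency factor, was at 0 in every SSC library and at 270.2 FPKM or more in iPSC. A pluripotency list (8 of 12 genes with a locus) summed to 69.0 to 72.7 FPKM in SSC, with Klf4 on top, and to 1653 to 2220 FPKM in iPSC. RNA of the transgenes for Pou5f1 and Klf4 may count toward that sum, and Sox2 had no locus.

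The same SSC libraries held RNA of other testis cells. Of a Sertoli list of 12 genes, 10 had a locus and 8 were at 1 FPKM or more in every SSC library. Their summed level was 1149, 1161 and 924 FPKM in SSC replicates 1, 2 and 3, above the germ line sum in each library. Clu, a secreted chaperone, was on top and alone gave 713, 645 and 538 FPKM of these sums. The order of the Sertoli and germ line sums thus rests on Clu. In iPSC the Sertoli sum was 173 to 304 FPKM, of which the X-linked homeobox gene Rhox5 gave 162 to 296 FPKM. Rhox5 was thus higher in iPSC than in SSC (1.03 to 1.98 FPKM), while Cst12, Cst9 and Fshr were at 0 in all 6 iPSC libraries. The Leydig list (4 of 8 genes with a locus, Cyp11a1 on top) summed to 164, 132 and 255 FPKM in SSC and to no more than 0.358 FPKM in iPSC. The mast cell list (5 of 7, Tpsab1 on top) rose to 1179 FPKM in SSC replicate 3 from 107 and 425 FPKM in replicates 1 and 2, and the macrophage list (7 of 8, C1qa on top) was at 57.0, 19.2 and 185 FPKM. Lists of peritubular myoid cells (5 of 7, Acta2 on top; 90.2 to 104 FPKM), fibroblast or feeder cells (8 of 8, Col3a1 on top; 88.0 to 282 FPKM) and endothelium (7 of 7, Pecam1 on top; 60.6 to 127 FPKM) were also present in SSC. In iPSC the sums of these 3 lists were 16.7 to 21.3, 12.2 to 42.3 and 85.4 to 128 FPKM. Of the endothelial sum in iPSC, Pecam1 alone gave 79.6 to 125 FPKM, while Cdh5 was at no more than 0.0458 FPKM and Emcn at 0 in all 6 iPSC libraries. These are bulk samples, so fewer cells of a type and less RNA per cell cannot be told apart, and the part of other testis cells in the differences described below was not tested.

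**Figure D1:**
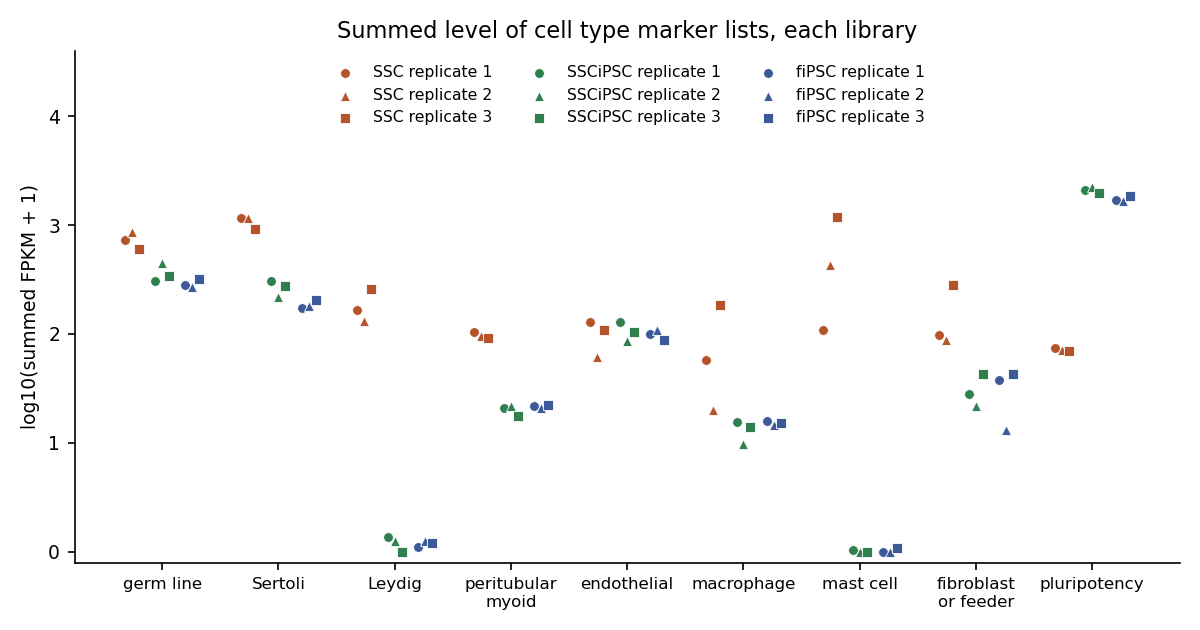
Summed FPKM of 9 cell type marker lists in each library, as log10(summed FPKM + 1), with colour for the group and symbol for the replicate number. The Sertoli, Leydig and mast cell sums are higher in every SSC library than in every iPSC library, and the pluripotency sum is lower.

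In SSCiPSC, RNA of Rdh10, Aldh1a1, Aldh1a2, Crabp1 and Cyp26b1 was lower than in the SSC libraries, which also held RNA of other testis cells. RNA of the receptors Rara and Rarg was higher, though the Rara call was lost in several alternative fits given below. Each pair of groups was fitted with limma on log2(FPKM + 1). A locus entered where 3 or more of the 6 libraries reached 1 FPKM, p-values were adjusted over all loci tested (Benjamini-Hochberg) and the threshold was 0.05. Fold changes are differences on the log2(FPKM + 1) scale, on which the change of a low gene comes out too small. Of the 9 members 7 were tested, and 5 were lower and 2 higher in SSCiPSC than in SSC. Among all loci tested 50.3% passed the threshold (26.2% higher and 24.1% lower in SSCiPSC), and of the loci named for a gene 63.1% did. For all 7 tested members the values of SSCiPSC and SSC did not overlap, as for 59.8% of all loci tested, and the exact two-sided permutation p of each was 0.1, the smallest that 3 libraries against 3 can give. In fiPSC against SSC, which uses the same SSC libraries, the same members were again 5 lower and 2 higher, where 51.8% of all loci passed (28.0% higher, 23.7% lower) and 65.7% of those named for a gene, and 61.6% did not overlap. The median log2 fold change of the tested members was -2.25 in SSCiPSC and -1.99 in fiPSC, against 0.11 and 0.17 over all loci tested. Aldh1a1 and Cyp26b1 passed the filter through the SSC libraries alone, so they had to differ once tested, and these counts and medians are a description.

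**Figure D2:**
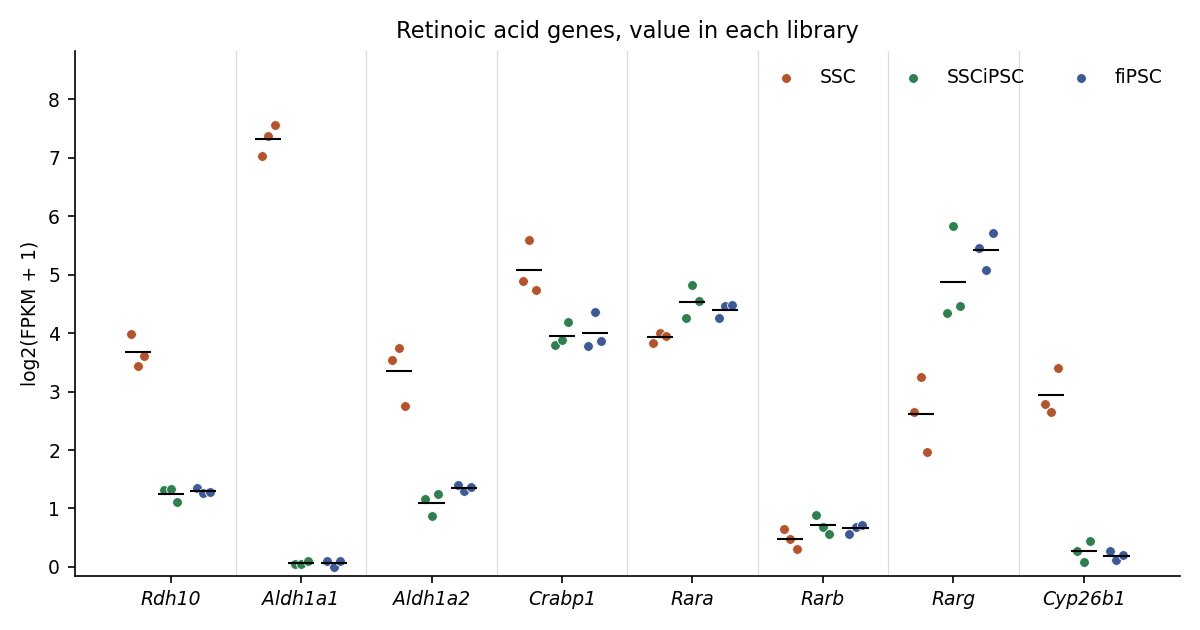
Level of 8 members in each library as log2(FPKM + 1), with points for libraries and bars for the mean of 3. Rdh10, Aldh1a1, Aldh1a2, Crabp1 and Cyp26b1 lie higher in all SSC libraries than in all iPSC libraries, Rara and Rarg lie lower, and Rarb overlaps.

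Among the synthesis genes, Aldh1a1 (chr19:20601981-20643520, plus strand) changed most. It was at 130, 166 and 187 FPKM in SSC replicates 1, 2 and 3, at 0.0328, 0.0377 and 0.0685 FPKM in SSCiPSC, and at 0.0779, 0 and 0.0671 FPKM in fiPSC. Every SSC library was far above every iPSC library, and the iPSC values lay below the floor of 3 fragments, which for Aldh1a1 was 0.0777 to 0.102 FPKM in those libraries. The log2 fold change was -7.26 (SE 0.19, adjusted p = 9.4e-06) in SSCiPSC and -7.26 (SE 0.17, adjusted p = 9.2e-06) in fiPSC, both against SSC. Aldh1a1 entered the test through the SSC libraries alone, so these limma p-values add nothing to the levels themselves. The Aldh1a1 locus began 13 bases from the RefSeq start and covered 27.5% of the annotated gene. Beside it, the Sertoli sum was also higher in SSC, with Cst12 and Cst9 at 0 in iPSC. Rhox5 of the same list went the other way, from 1.03 to 1.98 FPKM in SSC to 162 to 296 FPKM in iPSC. Within SSC, Aldh1a1 was highest in replicate 3, where the Sertoli sum (924 FPKM) and the germ line sum (599 FPKM) were lowest and the Leydig (255 FPKM), macrophage (185 FPKM), mast cell (1179 FPKM) and fibroblast or feeder (282 FPKM) sums highest. The part of any of these cells in the Aldh1a1 level was not tested.

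Aldh1a2, the enzyme on which retinoic acid synthesis of the early embryo depends, was represented by 2 neighbouring loci. The more abundant one (chr9:71264028-71296261, plus strand) was at 10.6, 12.5 and 5.74 FPKM in SSC, at 1.23, 0.838 and 1.38 FPKM in SSCiPSC and at 1.63, 1.47 and 1.59 FPKM in fiPSC. SSC replicate 3 was the lowest SSC library and still lay above all iPSC libraries. Against SSC the log2 fold change was -2.25 (SE 0.33, adjusted p = 0.0019) in SSCiPSC and -1.99 (SE 0.30, adjusted p = 0.0023) in fiPSC. The other locus (chr9:71215673-71263885) gave -2.24 and -2.11.

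Rdh10 (chr1:16105332-16134047, plus strand), which catalyses the first step, was at 14.9, 9.78 and 11.2 FPKM in SSC, at 1.48, 1.52 and 1.16 FPKM in SSCiPSC and at 1.55, 1.41 and 1.43 FPKM in fiPSC. The groups of iPSC overlapped each other and neither reached SSC. On the log2 scale the change was -2.43 (SE 0.25, adjusted p = 0.00047) in SSCiPSC and -2.38 (SE 0.22, adjusted p = 0.00033) in fiPSC.

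Crabp1 (chr9:54764727-54773092, plus strand), which holds retinoic acid in the cytoplasm, was lower in iPSC but remained well expressed. It was at 28.9, 47.2 and 25.7 FPKM in SSC, at 13.0, 13.7 and 17.3 FPKM in SSCiPSC and at 12.7, 19.5 and 13.6 FPKM in fiPSC. The gap between groups was small beside the spread in SSC, where replicate 2 stood above the others. The fitted log2 fold change was -1.12 (SE 0.26, adjusted p = 0.011) in SSCiPSC and -1.08 (SE 0.27, adjusted p = 0.017) in fiPSC, and the second call was lost without fiPSC replicate 1 (-0.96, adjusted p = 0.074) or replicate 3 (-1.01, adjusted p = 0.071).

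Of the retinoic acid receptors, Rara and Rarg were higher in iPSC and Rarb was not tested. Rarg (chr15:102234932-102257474, minus strand), an RAR present in embryonic stem cells and in spermatogonia, was at 5.28, 8.47 and 2.90 FPKM in SSC, at 19.4, 55.9 and 21.2 FPKM in SSCiPSC and at 42.8, 33.0 and 51.7 FPKM in fiPSC. The lowest iPSC library lay above the highest SSC library, and SSCiPSC replicate 2 stood apart from the other SSCiPSC libraries. In SSC replicate 3, the shallowest library, 1 fragment of Rarg was worth 0.258 FPKM. In limma's fit the log2 fold change was 2.26 (SE 0.49, adjusted p = 0.0092) in SSCiPSC and 2.80 (SE 0.35, adjusted p = 0.0010) in fiPSC.

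Rara (chr11:98927821-98975587, plus strand), a receptor found in most tissues and in Sertoli cells, was at 13.2, 15.0 and 14.5 FPKM in SSC, at 18.1, 27.3 and 22.3 FPKM in SSCiPSC and at 18.0, 21.1 and 21.3 FPKM in fiPSC. The groups did not overlap, but the difference was small. The log2 fold change was 0.61 (SE 0.19, adjusted p = 0.033) in SSCiPSC and 0.47 (SE 0.13, adjusted p = 0.022) in fiPSC. The first call was lost without any single SSC library (adjusted p of 0.083, 0.056 and 0.059 without replicates 1, 2 and 3) and without SSCiPSC replicate 2 or 3 (0.088 and 0.099), and also with eBayes without a trend (0.052). The second was lost without SSC replicate 1 (0.051) or fiPSC replicate 2 or 3 (0.074 and 0.080). With the libraries quantile normalized, Rara passed in neither comparison and the split of members became 1 higher and 5 lower in both.

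Rarb was below 1 FPKM in every library. The interval over part of the gene (chr14:16383135-16575598) holds loci on either strand, and the locus of highest mean there (16.4 to 26.2 FPKM) lies on the plus strand, opposite to Rarb and in the direction of the overlapping gene Top2b. The minus-strand locus was therefore taken for Rarb. It was at 0.575, 0.387 and 0.231 FPKM in SSC, at 0.851, 0.604 and 0.473 FPKM in SSCiPSC and at 0.484, 0.604 and 0.649 FPKM in fiPSC. The groups overlapped, and in SSC the floor of 3 fragments was 0.574, 0.220 and 0.735 FPKM (0.0580 to 0.0761 FPKM in iPSC), so a difference was not detectable at this depth. Rarb did not pass the filter on low values and was not tested with limma. In exact two-sided permutation tests p was 0.2 for SSCiPSC and 0.2 for fiPSC against SSC.

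Cyp26b1 (chr6:84571423-84588170, minus strand), whose product clears retinoic acid in the fetal testis, was at 5.91, 5.28 and 9.56 FPKM in SSC, at 0.204, 0.0544 and 0.363 FPKM in SSCiPSC and at 0.206, 0.0847 and 0.145 FPKM in fiPSC. All SSC libraries were above all iPSC libraries, and SSC replicate 3 was the highest. Against SSC the log2 fold change was -2.68 (SE 0.29, adjusted p = 0.00061) in SSCiPSC and -2.75 (SE 0.27, adjusted p = 0.00040) in fiPSC. Like Aldh1a1, Cyp26b1 entered the test through the SSC libraries alone, so these limma p-values add nothing to the levels. In SSC replicate 3 the Leydig, macrophage, mast cell and fibroblast or feeder sums given above were also at their highest. The Sertoli, germ line and peritubular myoid sums were at their lowest there. The part of any of these cells in the Cyp26b1 level was not tested.

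For Cyp26a1, the inducible breakdown enzyme, no level can be given. The only interval over the gene (chr19:37521069-37701537) also spans Exoc6 and Cyp26c1, and Cyp26a1 takes up 2.07% of it. Of the plus-strand loci there, the more abundant was at 13.0, 20.4 and 11.7 FPKM in SSC and at 9.71 to 16.6 FPKM in iPSC. The other was at 2.82, 1.26 and 1.20 FPKM in SSC and at no more than 0.258 FPKM in iPSC. Its log2 fold change was -1.27 (adjusted p = 0.0077) in SSCiPSC and -1.22 (adjusted p = 0.0072) in fiPSC, both against SSC. This locus, too, entered the test through the SSC libraries alone, so these limma p-values add nothing to the levels. The positions do not say which of the 3 genes each locus measured, so neither was counted for Cyp26a1.

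**Figure D3:**
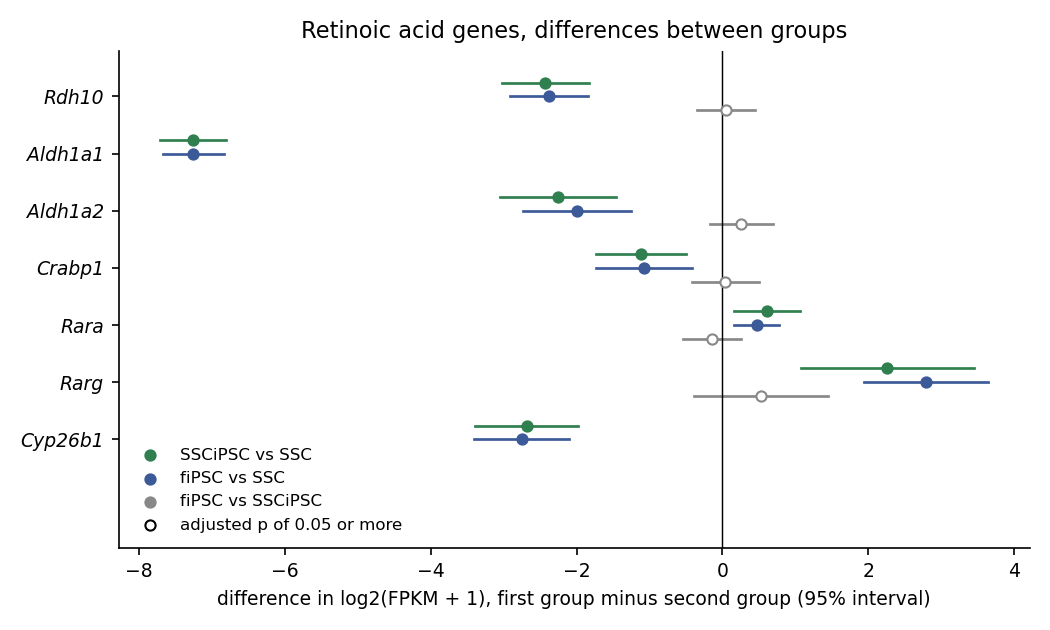
Difference in log2(FPKM + 1) of the tested members for SSCiPSC and fiPSC against SSC and for fiPSC against SSCiPSC, as points with 95% intervals from limma, filled where the adjusted p was below 0.05. Both comparisons with SSC share the SSC libraries. The intervals of fiPSC against SSCiPSC all span 0.

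FPKM is scaled per length, so levels can be ordered between genes within a group. In SSC Aldh1a1 came first with a mean of 161 ± 28.8 FPKM (SD, n = 3), followed by Crabp1 with 33.9 ± 11.6 FPKM and Rara with 14.2 ± 0.923 FPKM. These 3 did not overlap each other. Rara, Rdh10, Aldh1a2, Cyp26b1 and Rarg followed in that order, each overlapping its neighbour, and Rarb came last. In both iPSC groups the order opened with Rarg (32.2 ± 20.6 FPKM in SSCiPSC, 42.5 ± 9.35 FPKM in fiPSC), Rara (22.6 ± 4.58 and 20.1 ± 1.82 FPKM) and Crabp1 (14.7 ± 2.29 and 15.3 ± 3.65 FPKM), and closed with Aldh1a1. Rarg and Rara overlapped in SSCiPSC but not in fiPSC, and Rara and Crabp1 overlapped in fiPSC but not in SSCiPSC. Aldh1a1 thus stood first of 8 members in SSC and had the lowest mean in both iPSC groups. In SSCiPSC that last place overlapped Cyp26b1, and in both iPSC groups the Aldh1a1 values lay below the floor of 3 fragments.

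Between fiPSC and SSCiPSC, the comparison of the origin of the iPSC, 5 members were tested (Aldh1a1, Rarb and Cyp26b1 were below the filter) and 0 passed the threshold with limma, nor was any unadjusted p below 0.05. Across all loci tested 0.0678% passed and 11.7% had an unadjusted p below 0.05. The log2 differences, fiPSC minus SSCiPSC, were 0.05 for Rdh10 (95% interval -0.35 to 0.45), 0.04 for Crabp1 (-0.41 to 0.50), -0.14 for Rara (-0.54 to 0.25), 0.26 for Aldh1a2 (-0.17 to 0.69) and 0.53 for Rarg (-0.38 to 1.45). The values of Aldh1a2 did not overlap between fiPSC and SSCiPSC, as was the case for 18.6% of all loci tested, and its adjusted p was 0.62. The intervals leave room for differences of up to 1.45 on this scale for Rarg, so a missed threshold does not show that the lines had the same level.

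The other genes of the pathway were a list of 40, of which 31 had a locus and 23 were tested against SSC, the other 8 being below the filter on low values. In SSCiPSC 6 were higher and 10 lower than in SSC, and in fiPSC 7 were higher and 11 lower. The median log2 fold change of the list was -0.83 and -0.87, against 0.11 and 0.17 over all loci tested. Called shares over all loci were 50.3% and 51.8%, and over loci named for a gene 63.1% and 65.7%. Stra6, Aldh1a3, Adh1 and Meis1 passed the filter through the SSC libraries alone, so they had to come out lower, and the counts and medians of the list are a description. With quantile normalization the splits were 2 higher and 10 lower in SSCiPSC, and 4 higher and 11 lower in fiPSC. Among loci averaging 5 FPKM or more the majority turned, with 7 higher and 6 lower of 17 in SSCiPSC (median 0.64) and 8 higher and 7 lower of 17 in fiPSC (median 0.56), so the list has no direction that holds across filters. Between fiPSC and SSCiPSC 20 were tested and 0 passed with limma, and 1 had an unadjusted p below 0.05.

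**Figure D4:**
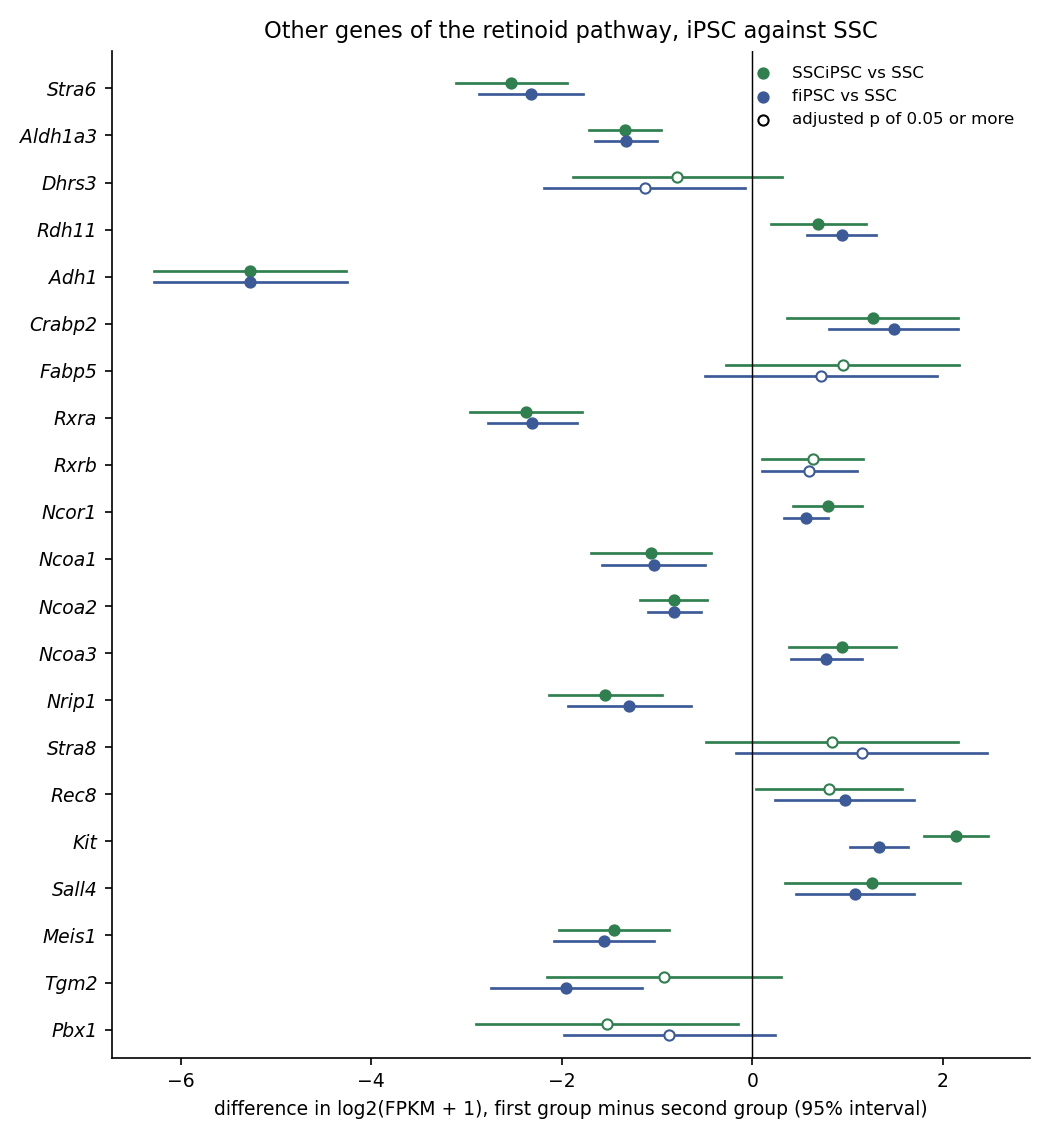
Difference in log2(FPKM + 1) of 21 of the 23 tested pathway genes between each iPSC group and SSC, as points with 95% intervals from limma, filled where the adjusted p was below 0.05. Genes are in the order uptake, synthesis, binding, receptors and coregulators, and targets. Adh1 shows the largest drop and Kit the largest rise in SSCiPSC.

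Of 6 genes of retinol uptake and storage 2 were tested, and both were called lower in each iPSC group. Among all loci tested 24.1% were called lower in SSCiPSC and 23.7% in fiPSC. Stra6 had to come out lower, as it passed the filter through the SSC libraries alone. Stra6, the membrane receptor that takes up retinol, was at 5.79, 5.82 and 3.89 FPKM in SSC and at no more than 0.254 FPKM in iPSC (log2 fold change -2.53, SE 0.24, in SSCiPSC and -2.33, SE 0.23, in fiPSC).

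Of 11 other synthesis genes 4 were tested. Adh1, an alcohol dehydrogenase that oxidizes retinol, was at 31.5, 30.1 and 84.1 FPKM in SSC and at no more than 0.308 FPKM in iPSC, with a log2 fold change of -5.27 (SE 0.42) in SSCiPSC and -5.27 (SE 0.42) in fiPSC. Its highest value was in SSC replicate 3. That library had the highest Leydig, macrophage, mast cell and fibroblast or feeder sums and the lowest Sertoli, germ line and peritubular myoid sums. The part of any of these cells in the Adh1 level was not tested. Aldh1a3, the third retinaldehyde dehydrogenase, was low in SSC (1.40, 1.83 and 1.53 FPKM) and lower in iPSC (-1.34, SE 0.16, and -1.32, SE 0.13). Rdh11, a retinaldehyde reductase, was higher in iPSC, with a mean of 11.6 FPKM in SSC, 19.6 FPKM in SSCiPSC (0.69, SE 0.21, adjusted p = 0.031) and 23.2 FPKM in fiPSC (0.94, SE 0.15, adjusted p = 0.0028). The first of these calls was lost in 7 of 15 alternatives, among them the replicate block (adjusted p = 0.060), and without SSC replicate 1 (0.081) or 2 (0.060) or SSCiPSC replicate 1 (0.10) or 3 (0.11). Dhrs3, which returns retinaldehyde to retinol, did not pass in either comparison and was at 2.97, 2.81 and 9.19 FPKM in SSC.

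Of the other binding proteins, Crabp2, which carries retinoic acid to RAR, was higher in iPSC while Crabp1 was lower. It was at 3.98, 1.71 and 2.54 FPKM in SSC, at 12.2, 6.88 and 5.38 FPKM in SSCiPSC and at 9.37, 7.76 and 10.5 FPKM in fiPSC. The groups of SSC and iPSC did not overlap. On the log2 scale the change was 1.26 (SE 0.37, adjusted p = 0.029) in SSCiPSC and 1.49 (SE 0.28, adjusted p = 0.0052) in fiPSC, and the first call was lost without SSC replicate 2 (adjusted p = 0.072) or 3 (0.056) or SSCiPSC replicate 1 (0.098) or 2 (0.078).

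Among partner receptors and coregulators 8 of 9 were tested, of which 2 were higher and 5 lower in each iPSC group than in SSC, where 50.3% (SSCiPSC) and 51.8% (fiPSC) of all loci passed. Rxra, the partner with which RAR binds DNA, was at 16.0, 16.6 and 11.9 FPKM in SSC, and at means of 2.05 FPKM in SSCiPSC and 2.16 FPKM in fiPSC (-2.37, SE 0.24, and -2.31, SE 0.19). Rxrb, a second partner, had the opposite sign but missed the threshold (0.64, adjusted p = 0.051, and 0.60, adjusted p = 0.051), and Rxrg was at 0 in 2 of the 3 SSC libraries and at no more than 0.490 FPKM elsewhere. Without SSC replicate 2 Rxrb passed in both comparisons (adjusted p = 0.041 and 0.034). On average Rxra was at 14.8 and Rxrb at 10.0 FPKM in SSC. Rxra was above Rxrb within every SSC library, though their ranges overlapped across libraries. Rxrb was at 15.8 and 15.3 FPKM in SSCiPSC and fiPSC and above Rxra in every iPSC library.

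Of the corepressors, Ncor1 was higher in iPSC, with means of 55.8, 97.9 and 82.8 FPKM in SSC, SSCiPSC and fiPSC (0.79, SE 0.15, and 0.56, SE 0.09), but this call was lost with quantile normalization, where the difference was 0.06 in SSCiPSC and turned to -0.03 in fiPSC. Nrip1, a ligand-dependent corepressor, fell from 12.5, 9.61 and 9.64 FPKM in SSC to 2.89, 3.87 and 2.24 FPKM in SSCiPSC and 2.93 to 5.61 FPKM in fiPSC (-1.54, SE 0.25, and -1.29, SE 0.26).

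Of the coactivators, Ncoa2 was lower (-0.83, SE 0.15, and -0.82, SE 0.11) and Ncoa3 higher in iPSC (0.94, SE 0.23, and 0.78, SE 0.15), the latter only without quantile normalization (0.28 and 0.23, adjusted p = 0.26 and 0.17). Ncoa1 was lower at its own locus (-1.06, SE 0.26, and -1.04, SE 0.22), but the direction turned to 0.77 in SSCiPSC and 0.58 in fiPSC when loci without a strand inside the gene were added, so its direction is uncertain. The loci of Ncor1, Ncoa2 and Nrip1 stand in intervals that hold other loci as well.

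Of 11 textbook target genes 7 were tested. In SSCiPSC 2 were higher and 1 lower than in SSC, and in fiPSC 3 were higher and 2 lower, beside the same 50.3% and 51.8% of all loci. Kit, the receptor for stem cell factor that marks differentiating spermatogonia, was at 10.1, 10.1 and 8.86 FPKM in SSC, at 42.4, 47.5 and 48.4 FPKM in SSCiPSC and at 23.9, 27.8 and 26.0 FPKM in fiPSC. The 3 groups did not overlap, with SSCiPSC highest and fiPSC between. The fitted log2 fold change was 2.14 (SE 0.14, adjusted p = 0.00013) in SSCiPSC and 1.33 (SE 0.13, adjusted p = 0.00037) in fiPSC against SSC. Between fiPSC and SSCiPSC it was -0.81 (SE 0.11), with an unadjusted p of 0.00017 but an adjusted p of 0.10, and Kit was the only one of the 20 pathway genes tested there with an unadjusted p below 0.05.

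Stra8, which germ cells turn on before meiosis in response to retinoic acid, was at 6.06, 24.1 and 6.10 FPKM in SSC, at 16.8, 27.3 and 13.3 FPKM in SSCiPSC and at 18.5, 19.8 and 32.8 FPKM in fiPSC. SSC replicate 2 lay among the iPSC values and the other SSC libraries lay below all of them. In limma's fit the log2 fold change was 0.84 (SE 0.55, adjusted p = 0.25) in SSCiPSC and 1.15 (SE 0.54, adjusted p = 0.12) in fiPSC, and without SSC replicate 2 it was 1.45 (adjusted p = 0.016) and 1.76 (adjusted p = 0.0051). Replicate 2 also had the highest germ line sum and the most fragments of the SSC libraries.

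Rec8, a meiotic cohesin subunit, was at 2.16, 4.10 and 5.14 FPKM in SSC, at 8.53, 5.65 and 7.34 FPKM in SSCiPSC and at 6.78, 9.85 and 7.79 FPKM in fiPSC. All iPSC libraries were above all SSC libraries, with 0.81 (adjusted p = 0.077) in SSCiPSC and 0.97 (SE 0.30, adjusted p = 0.036) in fiPSC. The fiPSC call was lost without SSC replicate 2 (adjusted p = 0.055) or any single fiPSC library (0.077, 0.13 and 0.10 without replicates 1, 2 and 3), and the SSCiPSC difference passed without SSC replicate 3 (0.041).

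Sall4, a zinc finger factor shared by spermatogonia and pluripotent cells, was at 45.9, 39.7 and 25.9 FPKM in SSC, at 59.1, 151 and 76.7 FPKM in SSCiPSC and at 77.4, 62.2 and 96.0 FPKM in fiPSC. It was higher in every iPSC library, with 1.26 (SE 0.38, adjusted p = 0.032) and 1.07 (SE 0.25, adjusted p = 0.013). It missed the threshold with quantile normalization (adjusted p = 0.17 and 0.11). The SSCiPSC call was lost without SSC replicate 2 (0.061) or 3 (0.080) or SSCiPSC replicate 2 (0.069) or 3 (0.078), and the fiPSC call without fiPSC replicate 1 (0.055) or 3 (0.057).

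Meis1, a homeobox gene, and Tgm2, transglutaminase 2, are targets with lower means in iPSC. Meis1 fell from 2.24, 1.79 and 3.37 FPKM in SSC to no more than 0.389 FPKM in iPSC (-1.46, SE 0.24, and -1.56, SE 0.21). Tgm2 was at 24.8, 15.5 and 29.9 FPKM in SSC, at 22.7, 5.14 and 12.2 FPKM in SSCiPSC and at 4.53, 7.66 and 3.75 FPKM in fiPSC. Only fiPSC differed from SSC past the threshold (-1.95, SE 0.32, adjusted p = 0.0032, against -0.93, SE 0.51, adjusted p = 0.18 in SSCiPSC), while the test between fiPSC and SSCiPSC gave -1.03 (adjusted p = 0.46), so fiPSC and SSCiPSC were not shown to differ.

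**Figure D5:**
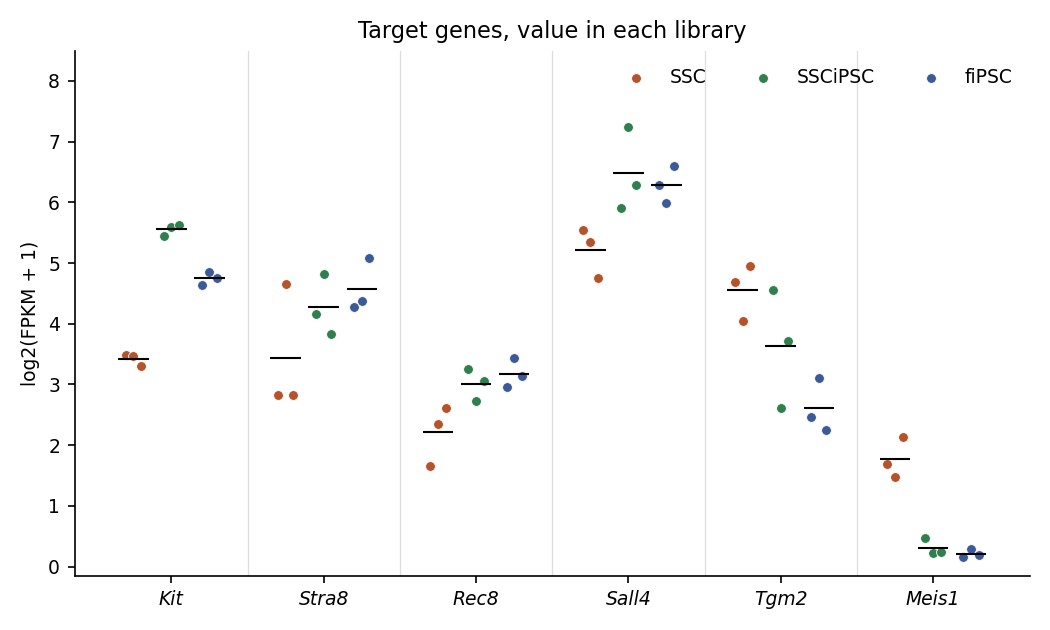
Level of 6 target genes in each library as log2(FPKM + 1), with points for libraries and bars for the mean of 3. Kit separates all 3 groups, Stra8 in SSC replicate 2 (24.1 FPKM) lies among the iPSC values, and Tgm2 overlaps between SSC and SSCiPSC.

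For each member with a group mean of at least 5 FPKM, the genes with the most similar profile were taken as the 3 named genes with the smallest root mean square difference of centred log2(FPKM + 1) over the 9 libraries. For Aldh1a1 these were Defb19 (0.25), Cst12 (0.30) and Cst9 (0.36), genes for secreted defensin and cystatin proteins that were each at 81.0 FPKM or more in SSC and at 0 in all iPSC libraries. Cst12 and Cst9 belong to the Sertoli list above. Within SSC, Aldh1a1 was highest in replicate 3, where Defb19 (193 FPKM) and Cst9 (81.0 FPKM) were lowest. Cst12 in that library (206 FPKM) lay between its values in replicates 1 and 2. For Cyp26b1 the nearest were Zfp36 (0.13), Lpin2 (0.16) and Bmpr2 (0.17). For Rdh10 they were Plekho2 (0.12), Atp2b1 (0.16) and Acsl4 (0.17), and for Aldh1a2 Mfsd4a (0.18), Zfp275 (0.20) and St6gal1 (0.21). For Crabp1 they were Acss2 (0.14), Rnf6 (0.18) and Ppm1d (0.19). For Rara they were Kdm3b (0.08), Thoc3 (0.09) and Ube2q1 (0.09). Rarg, the member farthest from its nearest gene, was matched by Enox1 (0.31), Nme4 (0.31) and Zp3 (0.33). These profiles share the libraries and their depth, and the measure is a description over 9 libraries.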

How the data were processed

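The authors made the values from paired end reads of stranded libraries. The labels name a depletion of ribosomal RNA and a stranded mRNA kit, and the study's methods the mRNA kit alone. The submitters' processing notes name Trimmomatic 0.32, TopHat2 2.0.9, Bowtie2 2.1.0, Cufflinks 2.2.1 and Cuffdiff. The deposited table gives 1 FPKM value per locus and library (its header says RPKM), with no counts. The notes name build mm9, but the positions match GRCm38. Of the stranded loci with both ends within 300 bp of a gene, 2980 had that gene's strand and 59 the other. Of 54914 loci 1 with a blank value was left out. Strand was read from the 3 sorted blocks of each chromosome. A locus was named for a protein-coding gene (GENCODE vM21) of its strand with at least 50% of the locus in the gene and 20% of the gene in the locus, or else for a gene with 50% of its length in a locus with no strand, and the highest mean was used.

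Depth was estimated from steps between low FPKM values of loci of 600 to 6000 bp. Floors of 3 fragments cover counting error only. The tests used lmFit and eBayes with a trend of limma 3.58.1 (R 4.3.3), checked on simulated data, and the plots Python 3.11.15 with matplotlib 3.10.9. The members and gene lists were chosen with earlier results of these data known. The genes named are the members, listed pathway genes with a locus, the 3 most similar profiles (mean of at least 5 FPKM) and the top gene and genes at 0 of each marker list. Genes named outside this rule (Gfra1, Lin28a, Etv5, Rhox5, Cst12, Cst9, Fshr, Cdh5, Emcn, Top2b, Exoc6, Cyp26c1, Pou5f1, Sox2) were chosen after values were seen, the last 2 as transgenes. The values of 2 pathway genes are not reported here, though the counts of the list include them. A file that counts features of the authors' own analysis was not used.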

Additional observations from a re-analysis of the deposited data

How the results depend on the processing

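The test was repeated with each of 9 libraries left out where it took part, with a pseudocount of 0.1, unfiltered, or only for loci averaging 5 FPKM or more. Scaling was changed to quantile normalization or to median ratios. The fit was changed by dropping the variance trend, by adding the third group, by a replicate block, or by summing the loci of a gene. Of 281 member values under them, 263 kept direction and side of the threshold, 14 lost a call (Rara 12, Crabp1 2) and 4 changed sign, all in fiPSC against SSCiPSC, where no member passed. The sign changes were Rdh10 with quantile normalization (-0.074) and with a library left out (-0.022 to 0.089), and Crabp1 with a library left out (-0.13 to 0.16). Aldh1a2, Rdh10 and Rarg passed against SSC in every alternative. Aldh1a1 and Cyp26b1 did so wherever they were tested. They reached 1 FPKM in the SSC libraries alone, so for them this is no measure of robustness. Among loci averaging 5 FPKM or more Cyp26b1 was not tested. Among pathway genes, Ncoa1 reversed with summed loci (0.77 and 0.58) and Ncor1 with quantile normalization in fiPSC (-0.032). Loci past the threshold numbered 10070 of 17141, 10528 of 17246 and 10 of 16004 with the mean filter of 5 FPKM, which tests fewer loci. In fiPSC against SSCiPSC the 23 loci became 11 with all 9 libraries, and 6 to 20 with a library left out (9 without SSCiPSC replicate 2, 6 and 8 without fiPSC replicates 1 and 3), and the cause was not tested. Median-ratio scaling raised the median of all loci from 0.11 to 0.29 in SSCiPSC and from 0.17 to 0.35 in fiPSC against SSC.

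Same-numbered libraries did not deviate together (correlations of -0.24 to 0.021), so the numbers do not pair the samples. With the replicate block, 7 members passed in SSCiPSC and 6 in fiPSC against SSC (Rara was lost, with a limma adjusted p of 0.059), with 16926 and 17546 loci, and 6 loci passed in fiPSC against SSCiPSC. SSC depth limits what can be seen of genes near 1 FPKM.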
